A study of Oryza sativa with 14 samples.

Results

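Abundant non-protein-coding transcripts were described in RNA-seq libraries of rice seedlings (Oryza sativa). They were the genes annotated as a non-protein-coding transcript whose mean over 6 libraries reached an RPKM of 5, RPKM being reads per kilobase of gene, scaled to the depth of the library. This rule found 236 transcripts among 2197 with that annotation and 38978 genes in all. Of the other 1961 non-coding transcripts, 783 had no read in any library. The rule used the mean of the same libraries that are compared below, so the abundance of these transcripts is given as a description.

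The tested genotype was osnat10, a line named after N-acetyltransferase 10 (NAT10), and it was set against wild type (WT) of the cultivar Kitaake, with 3 biological replicates of each. The sources used here give neither the allele of osnat10, its genetic background and the number of independent lines nor the age of the seedlings. Both genotypes were raised hydroponically on Yoshida medium in short days, lit for 10 h and dark for 14 h. NAT10 was named by 0 of the symbols and descriptions in the table, so the RNA of the targeted gene was not checked. Whole seedlings were used, so fewer cells of a type and less RNA per cell cannot be told apart in any value below.

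NAT10 is known from other eukaryotes as the acetyltransferase that turns cytidines of RNA into N4-acetylcytidine, a mark of ribosomal, transfer and some messenger RNAs. Non-protein-coding transcripts are RNA polymerase products for which annotators found no convincing reading frame. Some are precursors of small RNAs, some pair with other RNAs or overlap a neighbouring gene, and most have no known role. The best known among those measured here are the precursor of the microRNA miR159, which in plants represses GAMYB-like transcription factors, and IPS1, which is induced by phosphate starvation and, as shown in Arabidopsis, sequesters miR399 by pairing with it.

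Reads falling in genes numbered 13770857, 14282612 and 14857980 in the osnat10 libraries, and 13688629, 14816018 and 15583776 in the WT libraries. Libraries differed in tissue markers within WT. Summed light-harvesting genes reached an RPKM of 4420, 3950 and 4190 in osnat10, against 13200, 892 and 597 in WT replicates 1, 2 and 3. The sum of 6 root marker genes was 676, 919 and 776 in osnat10 and 422, 295 and 138 in WT. Both leaf and root markers were thus read in every library. Of the lists, 15 of 20 light-harvesting genes and 6 of 6 root markers had sufficient signal for a test, and limma called 0 in either list (0 and 5 at an unadjusted p under 0.05, 0 and 2 in the authors' deposited table, all higher in osnat10). WT replicate 1 stood apart from WT replicates 2 and 3 in light-harvesting RNA, and the 3 osnat10 libraries lay between them. Cytosolic ribosomal protein genes summed to 26000, 24100 and 28200 in osnat10 and 17500, 18700 and 19800 in WT. Of 152 tested, 141 had a positive log2 difference of osnat10 over WT, against 59.9% of all tested genes. For these genes limma called 0, with 98 higher and 2 lower at an unadjusted p under 0.05. The authors' deposited table called 33 higher and 1 lower. The part of these marker and ribosomal sums in the results below was not tested.

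The 236 transcripts were short. Their counted length had a median of 557.5 bp, with quartiles of 372.8 and 852.8 bp and a range of 122 to 5689 bp, while the 14146 other genes with a mean RPKM of 5 or more had a median of 1561 bp. Lengths under 500 bp were found in 104 of 236 (44.1%), against 323 of 14146 other genes (2.28%). Short genes collect few reads at a given RPKM, and the sum over the 6 libraries had a median of 852 reads per transcript, against 3009 per other gene. All but 1 of the transcripts were read in every library (235 of 236). The exception was Os01g0610050, described below.

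**Figure D1:**
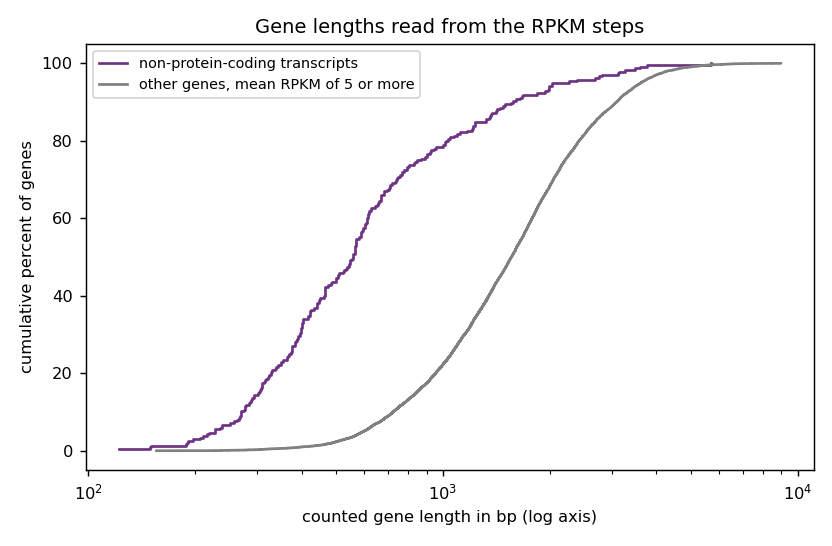
Cumulative percent of genes (vertical axis) against counted gene length in bp (horizontal log axis), for the 236 non-protein-coding transcripts (purple) and the 14146 other genes with a mean RPKM of 5 or more (grey). The purple line lies to the left of the grey one over nearly the whole range, with medians of 557.5 and 1561 bp.

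They were spread over all 12 chromosomes. Their share of the genes with a mean RPKM of 5 or more ran from 1.02% on chromosome 3 (21 transcripts) to 2.2% on chromosome 10 (16 transcripts). Rice locus numbers were first given in steps of 100, and numbers between these steps mark loci added later. Such in-between numbers were held by 108 of 236 (45.8%), against 4.99% of the other genes. Among the 1178 non-coding transcripts with a read but below the limit the share was 74.1% (873).

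Abundance was uneven within the group. Mean RPKM had a median of 12.04 with quartiles of 7.33 and 22.4, and 104 transcripts lay between 5 and 10, 107 between 10 and 50, 14 between 50 and 100, and 11 at 100 or above. In 210 transcripts the mean reached 5 in both genotypes. It was under 5 in WT only in 14 and under 5 in osnat10 only in 12, so these passed through one genotype. Just inside the limit stood Os02g0818500 at a mean RPKM of 5.11, Os01g0259933 at 5.06 and Os01g0118033 at 5.01. Just outside stood Os02g0562350 at 4.94, Os04g0611233 at 4.93 and Os02g0517421 at 4.92.

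As a group, the transcripts took 0.586%, 0.564% and 0.585% of the reads in genes in osnat10, and 0.574%, 0.676% and 0.642% in WT. Their summed RPKM was 6390, 6183 and 6616 in osnat10 and 5358, 6191 and 6059 in WT, with WT replicate 1 lowest. The median transcript had an RPKM of 12.2 in each osnat10 library, against 9.95, 11.5 and 11.7 in WT. All genes with a mean RPKM of 5 or more moved in parallel, with medians of 16.1, 15.6 and 16.1 in osnat10 and 13.3, 15.8 and 15.9 in WT.

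The most abundant transcript was Os03g0781501 (399 bp), with an RPKM of 795, 595 and 834 in osnat10 against 357, 351 and 389 in WT. Every osnat10 library lay above every WT library. On the scale of log2(RPKM + 0.5) the difference was 1.00 (SE 0.22, adjusted p = 0.093, limma), which did not pass the limit of 0.05. The next locus below it, Os03g0781400, a ribose 5-phosphate isomerase family gene, averaged 15.1 ± 0.977 RPKM in osnat10 and 17.3 ± 0.293 in WT (SD, n = 3 each).

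Os12g0136500 (1996 bp) held the most reads of the group, 78030 over the 6 libraries. Its RPKM was 211, 192 and 182 in osnat10 and 437, 604 and 453 in WT, so that all osnat10 libraries lay below all WT libraries. The log2 difference was -1.34 (SE 0.20, adjusted p = 0.055, limma). Under a median-of-ratios scaling of the libraries it passed the limit. Its neighbours Os12g0136300 and Os12g0136600 had an RPKM of 0.188 ± 0.0521 and 3.60 ± 0.549 in osnat10, and 0.274 ± 0.170 and 3.83 ± 0.526 in WT.

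Another very abundant transcript, Os04g0460900 (607 bp), had an RPKM of 164, 160.1 and 139 in osnat10 and 239.7, 278 and 249 in WT. Here too the genotypes did not overlap, with a log2 difference of -0.73 (SE 0.17, adjusted p = 0.10, limma). Os07g0139600 (366 bp) lay the other way, at 222, 185 and 215 in osnat10 and 133, 149.5 and 127 in WT, with a log2 difference of 0.60 (adjusted p = 0.13, limma).

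In Os02g0653000 (404 bp) the libraries differed more widely. It had an RPKM of 169, 177 and 214 in osnat10 against 28.1, 36.6 and 91.6 in WT, a log2 difference of 2.02 (SE 0.40, adjusted p = 0.085, limma). Os09g0469600 (324 bp) resembled it, with 135, 178 and 199 in osnat10 and 40.9, 52.9 and 84.7 in WT, a log2 difference of 1.56 (adjusted p = 0.076, limma). In both transcripts WT replicate 3 was the highest WT library and stayed below the lowest osnat10 library.

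The other 6 of the 12 most abundant transcripts overlapped between genotypes, except Os03g0234350. That transcript had an RPKM of 119, 127 and 142 in osnat10 and 102, 109 and 105 in WT, a log2 difference of 0.29 (adjusted p = 0.33, limma). Os12g0560900, which carries the symbol OsOBF1, had 184, 176 and 182 in osnat10 and 126, 229 and 234 in WT. Os06g0686700 averaged 142 ± 5.11 in osnat10 and 164 ± 28.6 in WT, and Os12g0114900 98.8 ± 27.1 in osnat10 and 138 ± 51.3 in WT (SD, n = 3 each). Os02g0750200 averaged 99.7 ± 8.15 in osnat10 and 111 ± 39.5 in WT, and Os08g0229200 91.0 ± 3.95 in osnat10 and 84.7 ± 27.8 in WT. In all 6 but Os03g0234350 the WT libraries were the more scattered ones, and the adjusted p of the 6 ran from 0.33 to 0.92 (limma).

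**Figure D2:**
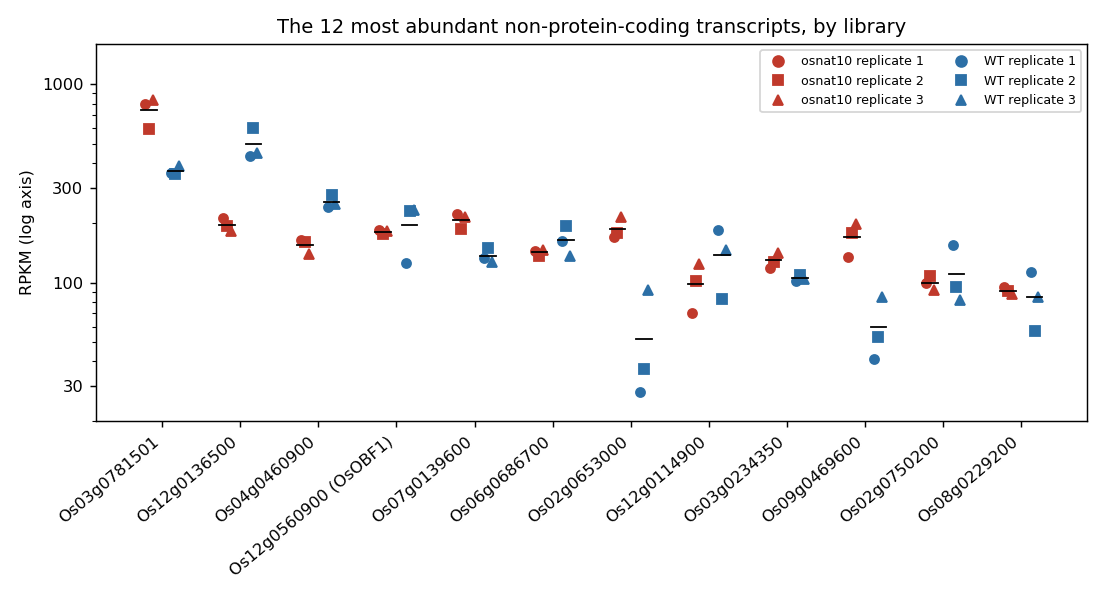
RPKM (vertical log axis) of the 12 most abundant non-protein-coding transcripts in each of the 3 osnat10 libraries (red) and 3 WT libraries (blue), with a bar at each genotype's mean. Os03g0781501 lies at 595 to 834 in osnat10 and 351 to 389 in WT, while Os12g0136500 lies at 182 to 211 in osnat10 and 437 to 604 in WT.

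Of the 236, 15 carry a gene symbol, and these were picked for description by their symbols. The miR159a precursor, Os01g0507000 (1681 bp), had an RPKM of 20.8, 24.7 and 19.5 in osnat10 and 25.5, 24.1 and 16.7 in WT. Its genotypes overlapped and its log2 difference was -0.01 (SE 0.21, adjusted p = 0.98, limma). OsIPS1, Os03g0146800 (564 bp), had 19.6, 14.9 and 13.9 in osnat10 but 21.2, 0.186 and 9.02 in WT, from 212, 2 and 102 reads in WT. WT alone thus held both the highest and the lowest value of this phosphate-starvation RNA. The log2 difference of 1.66 (SE 1.10, adjusted p = 0.45, limma) was not larger than that spread. Without WT replicate 2 it was 0.20 and without WT replicate 1 it was 2.69.

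Most of the other symbols name protein families, although the table describes these loci as non-coding. The read values cannot show whether a locus is translated. Arabinogalactan proteins, glycoproteins of the plant cell surface, gave 3 of them. OsAGP14 (Os01g0559900) had an RPKM of 78.9, 70.5 and 68.6 in osnat10 against 25.4, 33.3 and 39.6 in WT, with no overlap and a log2 difference of 1.16 (SE 0.19, adjusted p = 0.066, limma). OsAGP22 (Os02g0718100) had 74.5, 106 and 102 in osnat10 against 51.9, 44.4 and 28.2 in WT, again with no overlap and a log2 difference of 1.20 (adjusted p = 0.093, limma). OsAGP24 (Os06g0318800) had 31.4, 20.9 and 54.1 in osnat10 and 41.3, 122 and 101 in WT, with overlap and a log2 difference of -1.27 (adjusted p = 0.20, limma). The difference was positive in 2 members of the family and negative in 1, and none passed the limit in the RPKM as deposited. Under median-of-ratios scaling OsAGP14 did (log2 difference 1.05, adjusted p = 0.048, limma). The authors' deposited table calls all 3, at an adjusted p of 5.1e-05 for OsAGP14, 0.030 for OsAGP22 and 0.028 for OsAGP24.

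The locus after OsAGP22, OsAGP21 (Os02g0718600), which is annotated as a protein, averaged 46.6 ± 12.1 RPKM in osnat10 and 17.1 ± 5.12 in WT, a log2 difference of 1.43 (adjusted p = 0.078, limma). OsGLT1 (Os01g0681900, 277 bp), whose symbol is that of NADH-dependent glutamate synthase, an enzyme of nitrogen assimilation, had an RPKM of 24.9, 19.2 and 20.9 in osnat10 and 4.68, 17.4 and 11.7 in WT. The next locus, Os01g0682001, is described as similar to that same enzyme and averaged 21.4 ± 0.942 in osnat10 and 15.1 ± 3.39 in WT. The log2 differences of the 2 loci were 1.08 and 0.51, both with an adjusted p of 0.22 (limma). Without WT replicate 1, the lowest WT library of OsGLT1, its difference was 0.58.

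OsSWEET1a (Os01g0881300), named after a family of sugar transporters, had an RPKM of 72.5, 81.5 and 74.3 in osnat10 and 58.2, 53.8 and 83.6 in WT. OsLTP1.17 (Os12g0115050), named after lipid transfer proteins, averaged 89.1 ± 10.7 in osnat10 and 70.4 ± 15.3 in WT (SD, n = 3 each). OsFbox176 (Os03g0802200), named after the F-box subunits of ubiquitin ligases, had 9.14, 6.76 and 8.42 in osnat10 and 9.71, 29.9 and 16.7 in WT. Its genotypes did not overlap, with a log2 difference of -1.03 (adjusted p = 0.20, limma). The authors' deposited table calls it, at an adjusted p of 0.0285 (DESeq2). The symbol is shared with another locus in 3 cases, OsLTP1.17, OsFbox176 and OsRLCK172, and each time that locus is a neighbour by locus number. Whether reads were split between such loci was not tested. OsRLCK172, OsWD40-37, OsPOP21 and OsFbox218 overlapped between genotypes, with log2 differences of -0.02, 0.01, -0.12 and -0.39.

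Between genotypes, 1 of the 236 transcripts rose in osnat10 and 0 fell in the limma test across all 24380 genes with sufficient signal, at an adjusted p under 0.05. All 236 passed the signal filter. The share called was 0.123% of all tested genes in the higher direction and 0.0287% in the lower one (30 and 7 genes), 0.152% in all. Under median-of-ratios scaling 3 transcripts were called higher (1.27%) and 2 lower (0.847%), against 0.209% and 0.234% of all tested genes. At an unadjusted p under 0.05, 49 transcripts were higher (20.8%) and 25 lower (10.6%) in osnat10, 31.4% in all. Of all tested genes 13.6% and 5.69% were, 19.2% in all. The authors' deposited table, which comes from DESeq2, called 13 of the 236 higher (5.51%) and 18 lower (7.63%) at its adjusted p under 0.05. That is 31 in all (13.1%). Over the 27104 genes with an adjusted p there the shares were 2.42%, 3.79% and 6.2%. Both comparison sets include genes with a mean RPKM under 5. For the unadjusted p and the authors' calls no share matched for abundance is given.

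The count depended on the WT libraries. Without WT replicate 1, limma called 21 transcripts higher and 19 lower in osnat10 (8.9% and 8.05% of the 236), against 6.28% and 4.84% of all tested genes. Without WT replicate 3 it called 16 higher and 1 lower (6.78% and 0.424% of the 236), against 3.63% and 0.406%. Of these sets of 40 and 17 transcripts, 10 were shared, which is 25% of the first set and 58.8% of the second. Of 45 transcripts named by rule or symbol, 20 newly passed the limit without WT replicate 1, among them Os06g0480500 (log2 difference 2.99, adjusted p = 0.0015), Os04g0667850 (-1.44, adjusted p = 0.0061) and Os12g0136500 (-1.42, adjusted p = 0.0075). Without WT replicate 3, 9 did, among them Os02g0653000 (2.52, adjusted p = 0.0031), Os02g0818500 (2.72, adjusted p = 0.0037) and Os05g0191800 (4.30, adjusted p = 0.015, limma throughout). Os06g0480500 and Os05g0191800 were named for a wide WT range, and leaving out the WT library nearest to osnat10 removes most of that range. Others were named for a small p in these same libraries. With fewer WT libraries in each of these fits, the counts are a description only.

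Differences were centred where those of other genes were. The median log2 difference was 0.11 in the 236 and 0.11 in all tested genes, and 134 of 236 were positive (56.8%), against 59.9%. A scaling by median of ratios brought both medians to 0.01, so the transcripts lay at the middle of all genes under either scaling. A log2 difference beyond 1 in size was found in 39 of 236 (16.5%), 27 of them above 1 and 12 below -1, against 8.51% of all tested genes. This count holds transcripts that reached the abundance limit through one genotype, which favours large differences. Among the 210 with a mean RPKM of 5 or more in both genotypes it was 30 (14.3%), against 822 of 13336 tested genes (6.16%) that met the same condition. The transcripts also hold fewer reads and scatter more within a genotype than other genes of that abundance. The part of this in the share of large differences was not tested. In 47 transcripts every osnat10 library lay above every WT library (19.9%), against 17.2% of all tested genes. In 28 every osnat10 library lay below every WT library (11.9%), against 7.79%.

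**Figure D3:**
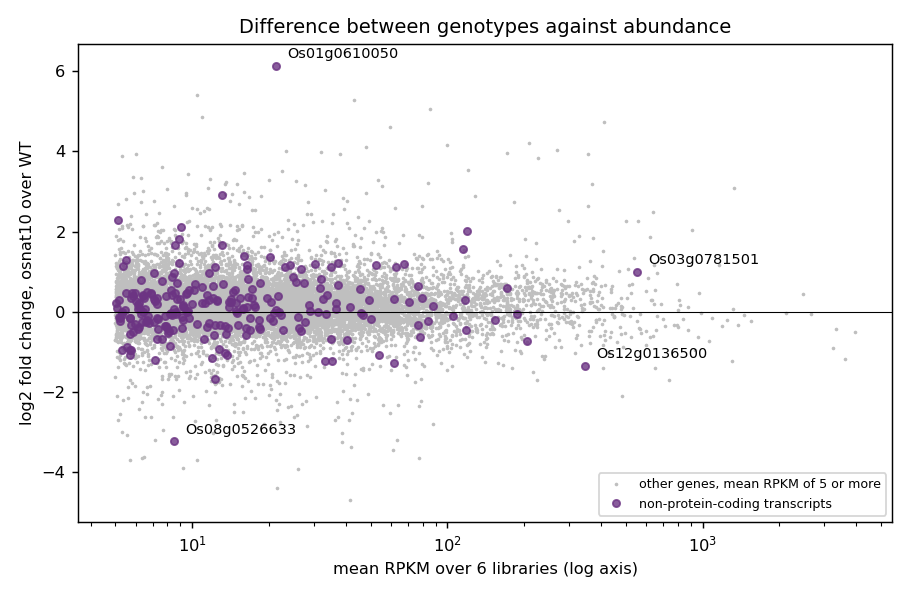
Log2 difference between osnat10 and WT on the scale of log2(RPKM + 0.5) (vertical axis) against mean RPKM over the 6 libraries (horizontal log axis), for the non-protein-coding transcripts (purple) and the other genes with a mean RPKM of 5 or more (grey). Os01g0610050 stands alone at 6.14, and most purple points lie within the grey cloud around 0.

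The transcript that rose was Os01g0610050 (567 bp, chromosome 1). Its RPKM was 40.7, 44.0 and 43.0 in osnat10, from 408, 459 and 464 reads, against 0.0995, 0 and 0.264 in WT, from 1, 0 and 3 reads. The osnat10 libraries were tightly grouped and WT was at or near 0 in all 3 libraries. The mean was 42.6 ± 1.72 in osnat10 and 0.121 ± 0.133 in WT (SD, n = 3 each), with a log2 difference of 6.14 (SE 0.23, adjusted p = 0.00013, limma). Set against all reads of the libraries, 1331 reads in osnat10 and 4 in WT gave a ratio of 343 (95% exact interval of 134 to 1260, counting error only). The authors' deposited table gives a log2 fold change of 8.33 (SE 0.77) for it. It reached the abundance limit through osnat10 alone.

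At the loci on either side the genotypes lay much closer together. OsPDR8 (Os01g0609900), named after the pleiotropic drug resistance transporters, averaged 27.1 ± 4.36 RPKM in osnat10 and 18.6 ± 7.94 in WT, a log2 difference of 0.61 (adjusted p = 0.32, limma). Os01g0610100, on the other side, averaged 74.6 ± 5.15 in osnat10 and 59.2 ± 4.44 in WT, a log2 difference of 0.33 (adjusted p = 0.27, limma). A difference of the size seen at Os01g0610050 was thus found at neither neighbour.

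Among 14381 other genes with a mean RPKM of 5 or more, the 5 whose log2 values followed Os01g0610050 most closely over the 6 libraries had a Pearson r of 0.9967 to 0.9975. With a single contrast, a high r means tight values within each genotype beside the step between them, whatever the size of that step, and it is given as a description. The closest was Os03g0299700, a conserved hypothetical protein, with an RPKM of 23.4, 19.4 and 20.01 in osnat10 and no read in WT (adjusted p = 0.00013, limma). Os07g0110000, also a conserved hypothetical protein, averaged 17.1 ± 2.502 in osnat10 and 1.81 ± 0.286 in WT (log2 difference 2.93, adjusted p = 0.0031, limma).

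The other 3 were well above 0 in WT. Os08g0524400, with a domain of unknown function, averaged 49.2 ± 1.63 in osnat10 and 17.3 ± 1.59 in WT (adjusted p = 0.016, limma). Os03g0756000, described as similar to a ribosomal protein of the large subunit, averaged 308.5 ± 4.79 in osnat10 and 191 ± 8.64 in WT (adjusted p = 0.10, limma). Os06g0523100, described as similar to a loricrin-related protein, averaged 45.9 ± 0.609 in osnat10 and 33.1 ± 0.318 in WT (adjusted p = 0.14, limma).

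**Figure D4:**
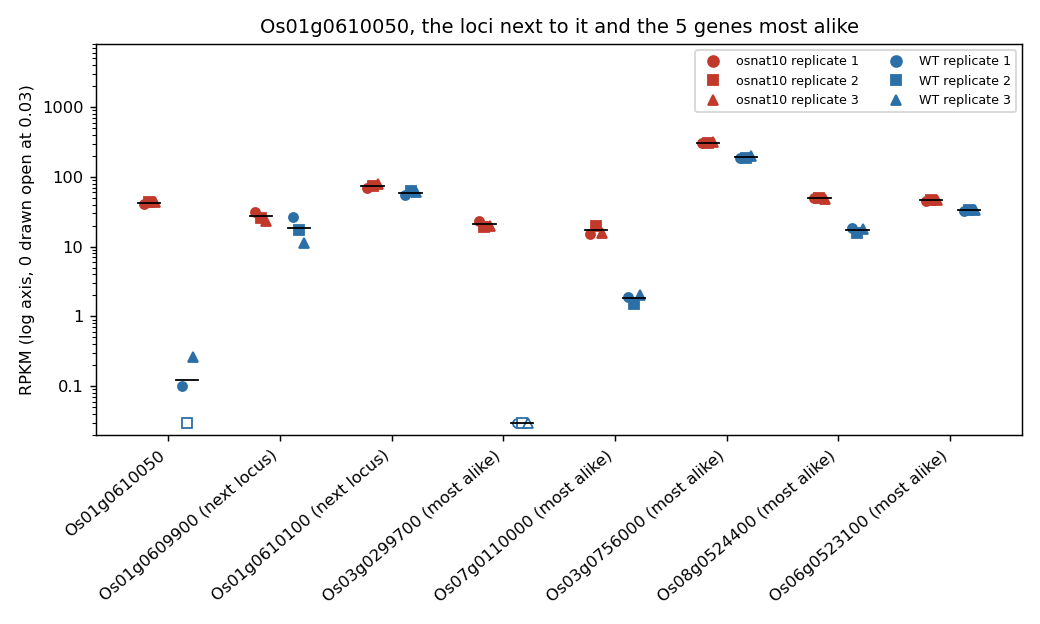
RPKM (vertical log axis, with values of 0 drawn as open symbols at 0.03) of Os01g0610050, its 2 neighbouring loci and the 5 genes most like it, in 3 osnat10 libraries (red) and 3 WT libraries (blue), with bars at the means. Os01g0610050 lies at 40.7 to 44.0 in osnat10 and at 0 to 0.264 in WT, while both neighbours lie above 10 in every library.

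Below the abundance limit, 1 further non-coding transcript was called, and it was named after its values were seen. Os02g0200950 had 16, 11 and 16 reads in osnat10 and none in the 3 WT libraries, with an RPKM of 1.59, 1.05 and 1.48 in osnat10 (adjusted p = 0.048, limma). It passed the signal filter through osnat10 alone, and its WT values show no spread. At this depth a few reads decide its value. Its counted length of 567 bp equals that of Os01g0610050, a length that 13 genes of the table have.

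In limma on the RPKM as deposited, no other transcript of the 236 passed the limit. Median-of-ratios scaling calls 4 more, namely Os12g0136500, OsAGP14, Os05g0555900 and Os04g0667850. The authors' deposited table calls each of the transcripts described next, in both directions, at an adjusted p under 0.05 (DESeq2). Those that came closest in the higher direction had an adjusted p between 0.055 and 0.082 (limma). Os02g0724300 (793 bp) had an RPKM of 18.2, 16.5 and 16.4 in osnat10 against 7.47, 8.47 and 6.85 in WT, a log2 difference of 1.12 (SE 0.17). The symbol rig belongs to Os07g0184300 (275 bp), which had 34.1, 30.04 and 36.7 in osnat10 against 12.9, 18.3 and 13.2 in WT, a log2 difference of 1.17 (SE 0.19). Both had tight values within each genotype and a gap between them.

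Os02g0818500 (3767 bp), the longest of these, had an RPKM of 8.15, 9.62 and 8.22 in osnat10 against 0.928, 0.850 and 2.90 in WT, a log2 difference of 2.29 (SE 0.37). Its mean was under 5 in WT, so it reached the abundance limit through osnat10. Os05g0555900 (278 bp) had 39.8, 32.6 and 36.3 in osnat10 against 13.4, 18.5 and 19.2 in WT, a log2 difference of 1.08 (SE 0.19). Os05g0503650 (452 bp) had 25.9, 39.0 and 23.3 in osnat10 against 14.7, 8.94 and 9.60 in WT, a log2 difference of 1.36 (SE 0.26). In each of them the lowest osnat10 library lay above the highest WT library.

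In the lower direction the smallest adjusted p after that of Os12g0136500 ran from 0.081 to 0.11 (limma). Os04g0667850 (467 bp) had an RPKM of 21.5, 19.9 and 20.4 in osnat10 against 35.8, 66.6 and 48.1 in WT, a log2 difference of -1.22 (SE 0.23). Os06g0199300 (329 bp) had 33.3, 27.3 and 44.6 in osnat10 against 65.5, 83.1 and 70.6 in WT, a log2 difference of -1.07 (SE 0.21). Neither overlapped between genotypes.

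Os08g0526633 (710 bp) had the largest negative difference of the group. Its RPKM was 0.796, 2.68 and 0.222 in osnat10, from 10, 35 and 3 reads, against 4.45, 21.5 and 21.5 in WT, from 56, 291 and 306 reads. The log2 difference was -3.22 (SE 0.71, adjusted p = 0.094, limma). It did not overlap between genotypes, but both genotypes were widely scattered, by over 2 on the log2 scale. Os06g0481000, Os12g0604000 and Os08g0536350 were less abundant, with means of 4.22 ± 1.26, 3.50 ± 0.939 and 3.70 ± 0.450 in osnat10 and 10.1 ± 0.547, 7.89 ± 1.35 and 7.67 ± 2.06 in WT (SD, n = 3 each). Like Os08g0526633, they had a mean under 5 in osnat10 and reached the abundance limit through WT, which favours large differences.

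Of the 31 transcripts called in the authors' deposited table, 3 overlapped between genotypes in RPKM, namely Os04g0635650, OsAGP24 and Os02g0180800. The same count over all 1681 genes called there is not given here. The count is thus a description and not a trait of these transcripts. The authors' deposited table gives log2 fold changes of 0.91 for Os03g0781501, 1.77 for Os02g0653000, -1.45 for Os12g0136500 and -3.72 for Os08g0526633. It calls all of these, at an adjusted p of 0.00098, 0.00086, 2.6e-11 and 0.00012 in that order (DESeq2). Os07g0139600 is not called there, at an adjusted p of 0.095 (DESeq2).

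By the range over replicates, given as a description, the transcripts were more scattered within a genotype than other genes. The range over the 3 libraries of a genotype, on the log2(RPKM + 0.5) scale, had a median of 0.40 in osnat10 and 0.80 in WT for the 236, against 0.26 in osnat10 and 0.64 in WT for the other genes with a mean RPKM of 5 or more. It exceeded 1 in osnat10 in 21 transcripts (8.9%), against 2.17% of the other genes. In WT it exceeded 1 in 86 transcripts (36.4%), against 23.9%. The transcripts are also shorter and hold fewer reads than the other genes, and the part of read number in this spread was not tested.

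WT was the more scattered genotype in 179 of 236 transcripts (75.8%), as in 84.8% of the other genes. Among the 86 with a wide WT range, WT replicate 1 was lowest in 52, WT replicate 2 in 18 and WT replicate 3 in 16, and WT replicate 1 was highest in 21. The same library was the most frequent lowest one among the 3380 other genes with a wide WT range, in 1595, against 922 for WT replicate 2 and 863 for WT replicate 3. WT replicate 1 also had the highest light-harvesting sum, and the part of this in the spread was not tested.

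The widest WT range was that of OsIPS1, given above, at 4.98. Os05g0191800 (339 bp) followed at 4.68, with an RPKM of 33.2, 8.66 and 19.7 in osnat10 and 0.832, 0.155 and 16.3 in WT. Its lower neighbour Os05g0191700, described as similar to a stem glycoprotein, had 25.8, 10.6 and 19.8 in osnat10 and 0.351, 0.381 and 12.5 in WT. The transcript and this neighbour were thus high and low in the same libraries. The neighbour on the other side, Os05g0192100, of the same description, had 18.8, 11.7 and 17.8 in osnat10 and 4.49, 7.14 and 7.41 in WT.

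Os02g0230250 had an RPKM of 6.58, 4.37 and 24.8 in osnat10 and 0.203, 1.20 and 16.4 in WT, with replicate 3 highest in both genotypes. Its log2 difference of 1.81 was 0.83 without WT replicate 1, 1.11 without osnat10 replicate 3 and 3.13 without WT replicate 3. In Os06g0480500 the values were 12.9, 16.2 and 12.2 in osnat10 and 10.4, 1.57 and 1.05 in WT, with WT replicate 1 near the osnat10 libraries. That transcript had a mean under 5 in WT and reached the abundance limit through osnat10. At the other end, Os01g0819466 had a WT range of 0.09, with an RPKM of 74.5, 74.2 and 85.5 in osnat10 and 90.3, 88.1 and 93.5 in WT. Os01g0221800 had 57.3, 46.3 and 39.2 in osnat10 and 54.0, 50.7 and 54.4 in WT, and was wider in osnat10. Os05g0514350 was likewise wider in osnat10, at 5.10, 8.505 and 8.79, than in WT, at 5.54, 5.43 and 5.03. Os01g0819466, Os01g0221800 and Os05g0514350 were named for a small WT range, which favours a wider range in osnat10.

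**Figure D5:**
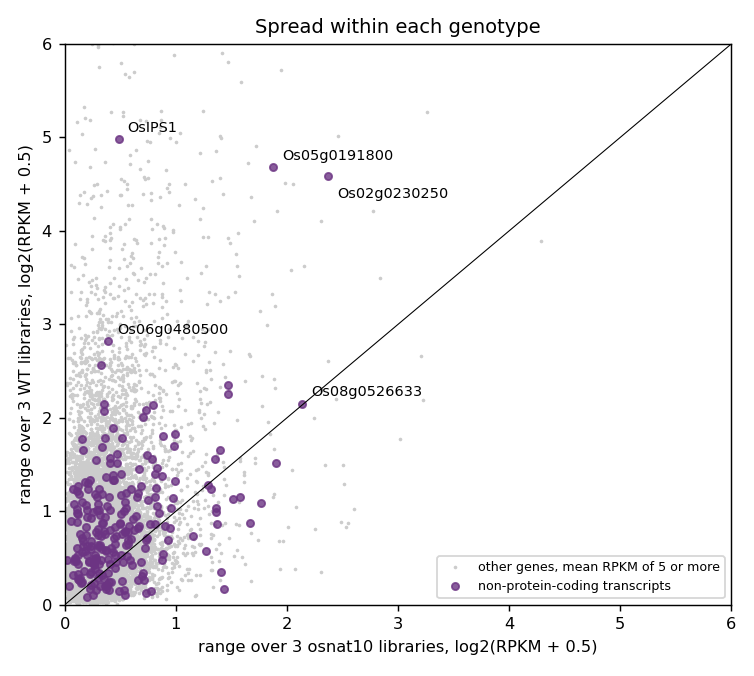
Range over the 3 WT libraries (vertical axis) against the range over the 3 osnat10 libraries (horizontal axis), both on the log2(RPKM + 0.5) scale, for the non-protein-coding transcripts (purple) and the other genes with a mean RPKM of 5 or more (grey; 20 lie beyond 6 and are not drawn). Points above the diagonal, 179 of the 236 transcripts, varied more in WT, and OsIPS1 lies highest among them.

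Neighbouring loci were compared because a transcript can overlap or share reads with a gene beside it, and the sources used here do not say whether counting used the strand. The log2 differences of the transcripts and of the next lower locus had a Pearson r of 0.26 (182 pairs of tested genes), against 0.15 for the other genes (9991 pairs). With the next higher locus r was 0.15 (174 pairs), against 0.15 (10232 pairs). These correlations run across genes of the same 6 libraries, and genes are not independent replicates.

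Several of the named transcripts lay beside a gene with a difference in the same direction, and the examples here are given for that match. Os05g0555900 adjoins Os05g0555800, a gene for a protein of the large ribosomal subunit, which averaged 175 ± 8.71 RPKM in osnat10 and 97.9 ± 10.8 in WT (log2 difference 0.84, adjusted p = 0.081, limma). Os04g0667850 adjoins Dhr6 (Os04g0667800), a ubiquitin-conjugating enzyme gene, which averaged 149 ± 2.51 in osnat10 and 262 ± 88.5 in WT (log2 difference -0.76, adjusted p = 0.18, limma). Os06g0199300 adjoins Os06g0199400, at 41.2 ± 9.12 in osnat10 and 73.7 ± 6.03 in WT (log2 difference -0.85, adjusted p = 0.095, limma). Os02g0653000 adjoins OsUCL4, a cupredoxin domain gene, at 74.6 ± 13.8 in osnat10 and 38.3 ± 10.5 in WT (log2 difference 0.98, adjusted p = 0.11, limma). On the opposite side of these transcripts the match was weaker or absent. The log2 difference there was 0.28 beside Os05g0555900, 0.31 beside Os04g0667850 and -0.13 beside Os06g0199300. The opposite neighbour of Os02g0653000 had too little signal for a test.

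At other loci the neighbours differed in the size or the sign of the difference. Beside Os08g0526633, with a log2 difference of -3.22, the neighbours had -0.22 and 0.29. The tested neighbour of Os07g0184300 had -0.30, against 1.17 in the transcript. That of Os12g0604000 had 0.22, against -1.09 in the transcript. Beside Os01g0259933, with a log2 difference of 0.10, the locus SAD1L (Os01g0259900) rose to 17.2 ± 0.542 RPKM in osnat10, against 1.76 ± 0.213 in WT (log2 difference 2.97, adjusted p = 0.0018, limma). Of 4 pairs of abundant non-coding transcripts with adjoining locus numbers, 3 shared the sign of their difference. The exception was Os06g0480500 with Os06g0481000, at log2 differences of 2.12 and -1.21. Os08g0536350 stands between 2 other non-coding loci, of which Os08g0536341 averaged 0.214 ± 0.371 in osnat10 and 3.67 ± 0.706 in WT (log2 difference -2.65, adjusted p = 0.055, limma).

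Other RNA classes gave context. The small structured RNAs were hardly represented in these libraries, with 206 of 216 small nucleolar RNA genes, 93 of 97 microRNA precursor genes, 189 of 197 transfer RNA genes and 80 of 83 spliceosomal RNA genes at 0 in every library. Non-coding transcripts below the abundance limit had a median log2 difference of 0.12 over 511 tested, with 1 called higher and 0 lower by limma (48 and 21 at an unadjusted p under 0.05, and 8 and 6 in the authors' deposited table). Ribosomal RNA genes had a median of -0.20 over 13 tested and transfer RNA genes one of -0.05 over 6 tested, with 0 called by limma (3 and 1 at an unadjusted p under 0.05, and 3 and 1 in the authors' deposited table, all lower in osnat10). The 4 tested small nucleolar RNA genes had a median of 0.16, with 0 called by limma, 1 at an unadjusted p under 0.05 and 0 in the authors' deposited table. Hypothetical genes, the other class without known function, had a median of 0.06 over 5631 tested, with 15 called higher and 2 lower by limma (594 and 369 at an unadjusted p under 0.05). The authors' deposited table has the other balance for them, with 111 higher and 230 lower. It has that balance for all tested genes too, with 634 higher and 968 lower, against 30 and 7 by limma.

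Genes of RNA silencing, which make and use small RNAs, had a median log2 difference of -0.23 over 19 tested, against 0.11 in all tested genes. limma called 0 of them, also at an unadjusted p under 0.05, while the authors' deposited table called 2 lower, the RNA-dependent RNA polymerase genes RDR1 and SHL2. RNA decay genes had a median of 0.20 over 10 tested, with 0 called by limma, 1 at an unadjusted p under 0.05, and 0 in the authors' deposited table.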

How the data were processed

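The deposited tables cover 3 osnat10 and 3 WT RNA-seq libraries of single-end 150 bp reads. The 8 libraries of the ac4C immunoprecipitation assay were not analysed here. RPKM per gene and library were deposited by the authors with each locus identifier, symbol and description. A second table deposited by the authors compares the genotypes, with a mean normalised signal per gene, a log2 fold change with its standard error, a Wald score that was not used, and p-values with adjusted p-values. Genome build IRGSP-1.0 and the tools STAR 2.5.3a, deepTools and DESeq2 are named, without their roles, in the submitters' processing notes. The sources used here do not give the counting tool, its use of strand or the annotation release. Coordinates and sequences were not used here.

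Whole reads and gene lengths were recovered from the steps of the RPKM values together with the authors' mean signal. Whole within 0.05 reads were 99.98% of 174814 values above 0, and lengths were whole within 0.05 bp in 100% of 13375 well-read genes. Depth ran from 17697204 to 20051849 reads per library, of which 77.2% to 78.1% fell in genes. No count model was run on the recovered reads.

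limma 3.58.1 (R 4.3.3, empirical Bayes with an intensity trend, no covariates) tested log2(RPKM + 0.5). A gene entered if its RPKM reached 0.5 in 3 or more of the 6 libraries, and p-values were adjusted by Benjamini-Hochberg over all 24380. At low RPKM the pseudocount shrinks fold changes. The steps were tested on simulated data. Python 3.11.15, numpy 2.4.6, pandas 2.3.3, scipy 1.17.1 and matplotlib 3.10.9 were used. Alternatives were other pseudocounts, filters and scalings, abundance limits of 3 and 10, leaving out each replicate, no intensity trend, and the replicate number as a block.

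The transcripts, gene lists and tests were chosen with earlier results of these data known. Named were Os01g0610050, the 12 most abundant transcripts, the 8 smallest p in each direction, the 4 largest and 4 smallest WT ranges, the 3 transcripts on each side of the limit, the 5 genes most like Os01g0610050 and the neighbouring loci. The 15 with a symbol were added after the data were seen, by symbol. The root marker and small nucleolar RNA word patterns were trimmed of unrelated genes after the annotations were read.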

Additional observations from a re-analysis of the deposited data

How the results depend on the processing

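Os01g0610050 was called in limma under every alternative run on it, with a log2 difference of 5.29 to 7.78 and an adjusted p of 8.7e-05 to 0.0052. The number of called transcripts, 1, became 5 under median-of-ratios scaling (3 higher and 2 lower in osnat10), and 1 to 40 when single libraries were left out. The cause was not tested. Among all tested genes the 37 calls became 21 under the stricter filter, which tests fewer genes, 108 under median-of-ratios scaling (51 higher and 57 lower, against 30 and 7), 52 under quantile normalisation (28 higher and 24 lower), and 8 to 2713 when single libraries were left out. They were 8, 11 and 10 without osnat10 replicates 1, 2 and 3, and 2713, 10 and 985 without WT replicates 1, 2 and 3.

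The labels do not say whether replicate numbers pair the samples. Deviations of same-numbered libraries correlated at -0.06, -0.03 and 0.13 for replicates 1, 2 and 3, against -0.11 to 0.12 for the other combinations. These few values cannot decide on pairing. With the replicate block, 20 genes and 1 transcript were called. The median log2 difference of the transcripts minus that of all tested genes, 0, became 0.04 with no filter, 0.04 under quantile normalisation, 0.07 for transcripts at a mean RPKM of 10 or more, and -0.04 to 0.03 when single libraries were left out.

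Over 45 named non-coding transcripts and 630 values under alternatives, 578 kept their direction and side of the limit, 33 newly passed it and 19 changed sign. The sign changes were in transcripts with small differences. Os02g0162700 went to -0.10 under median-of-ratios scaling and -0.06 under quantile normalisation, and Os01g0259933 to -0.06 under quantile normalisation. When single libraries were left out, the log2 difference ran from -0.07 to 0.48 in Os01g0118033, -0.11 to 0.40 in Os01g0259933, -0.20 to 0.10 in Os01g0507000, -0.13 to 0.13 in Os02g0162700, -0.29 to 0.18 in Os02g0750200, -0.75 to 0.01 in Os04g0472600, -0.12 to 0.10 in Os04g0679150, -0.10 to 0.39 in Os08g0229200 and -0.36 to 0.09 in Os12g0560900. Depth limits the transcripts with few reads, the lowest holding 137 over the 6 libraries.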
